A study of Rattus norvegicus with 4 samples.

Results

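ATF4 is a transcription factor that is made when translation slows down. Amino acid shortage, misfolded protein in the endoplasmic reticulum, heme deficiency and viral RNA each activate a kinase that phosphorylates eIF2, general translation falls, and the Atf4 mRNA is translated more. ATF4 then binds, often as a dimer with a C/EBP protein or CHOP, to genes for amino acid synthesis and transport, to genes that end the response, and, in liver, to Fgf21, a hormone that the liver secretes during fasting, protein restriction and mitochondrial stress.

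The 10 genes described here are Atf4 and 9 genes known as parts or targets of this response, Ddit3, Atf3, Nupr1, Trib3, Ddit4, Sesn2, Asns, Chac1 and Fgf21. They were found in each table by their gene symbol, and all 10 were present, of 16992 annotated genes in all. The group was chosen by values measured in these same libraries, so that the counts given for it are descriptions.

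The RNA came from 1 lobe of the liver (left lateral) in each of 4 male rats of the Wistar strain, labelled wild type, bought at 6 weeks of age and kept for at least 1 week. The volatile anesthetics sevoflurane (4.5%) and desflurane (6%) were given in 50% oxygen at 3 L/min. For each agent 1 rat was kept anesthetized for 6 hours and 1 rat, the control, was sacrificed when it lost consciousness, after less than 1 minute of the same agent, so that the controls had also inhaled it. Food and water were withdrawn 2 hours before the experiment, and the rats of the 6-hour groups were therefore without food for longer than their controls. Time under anesthesia and time without food cannot be told apart in this design. Each condition had 1 library, so there was no replicate check, no difference below was tested, and a difference between rats cannot be told apart from a difference between conditions.

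Values are TPM, transcript numbers scaled to a fixed total, a unit that takes gene length into account and allows levels of different genes to be compared. A gene was called higher or lower when its TPM exceeded 2 in the higher library and the libraries differed by more than 2-fold. The libraries held 4.47 to 5.40 Gb of aligned bases, and 9474 to 9695 genes exceeded 2 TPM in each. All 6 hepatocyte markers were detected, with a summed level of 127240 to 142426 TPM. Over 9136 genes above 2 TPM in all libraries, the median log2 change in TPM was 0.05 with sevoflurane and 0.12 with desflurane against the own controls. The sevoflurane control stood apart in 8 pancreatic acinar genes, whose summed level was 38.6 TPM there and 0.52 to 3.33 TPM in the other libraries, with Prss1, Pnlip and Ctrb1 listed at 0 outside that control. The acinar genes added up to 1.42 TPM in the desflurane control. Their part in the changes against the sevoflurane control was not tested, and the changes against the desflurane control are given beside them below. In whole liver, fewer cells of a type and less RNA per cell cannot be told apart.

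ATF4 dimers with C/EBP proteins bind the C/EBP-ATF response element, whose core was searched here as TGATGNAA (TTNCATCA on the other strand) in the 250 bases before the RefSeq gene start. The RefSeq promoter table (GRCr8) had an entry for 9 of the 10 genes, the exception being Atf3. The core was found in the windows of 4 of these 9, and in 1139 of all 33469 promoters, or 3.40%. These 4 genes were called higher with sevoflurane against its own control, and so were Asns and Ddit4, whose windows lack the core. With desflurane, Trib3 was called higher and Chac1 lower, and Fgf21 and Nupr1 were not called. The genes are known parts or targets of the response, and these contrasts were among the values that chose them. Nothing is therefore read from the number of windows with the core or from its match to the calls. The 4 windows are shown because they hold the core. Each is written 5′ to 3′ on the strand of the gene, ends at the base before the gene start and has the matching letters in capitals.
Fgf21 chr1:105221377-105221626 (minus strand): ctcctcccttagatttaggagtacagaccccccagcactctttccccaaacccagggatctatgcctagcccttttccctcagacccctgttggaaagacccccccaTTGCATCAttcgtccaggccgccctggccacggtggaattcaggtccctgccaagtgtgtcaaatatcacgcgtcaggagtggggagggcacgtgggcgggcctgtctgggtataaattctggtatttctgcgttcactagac
Chac1 chr3:126795881-126796130 (plus strand): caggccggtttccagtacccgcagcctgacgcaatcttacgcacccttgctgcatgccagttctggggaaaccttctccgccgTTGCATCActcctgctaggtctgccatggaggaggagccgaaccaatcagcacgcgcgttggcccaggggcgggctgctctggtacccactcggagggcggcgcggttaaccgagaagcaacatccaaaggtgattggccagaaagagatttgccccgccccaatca
Nupr1 chr1:190645902-190646151 (minus strand): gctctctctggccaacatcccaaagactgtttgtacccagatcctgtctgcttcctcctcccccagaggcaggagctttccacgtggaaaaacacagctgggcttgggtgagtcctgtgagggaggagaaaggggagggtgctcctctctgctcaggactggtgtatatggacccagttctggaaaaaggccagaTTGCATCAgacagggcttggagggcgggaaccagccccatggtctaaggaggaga
Trib3 chr3:161275534-161275783 (minus strand): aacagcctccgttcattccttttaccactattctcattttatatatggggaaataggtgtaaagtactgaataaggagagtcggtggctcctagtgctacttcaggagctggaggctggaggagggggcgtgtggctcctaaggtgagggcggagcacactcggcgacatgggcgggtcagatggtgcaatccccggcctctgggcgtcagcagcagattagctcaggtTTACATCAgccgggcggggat
All 4 matches lie on the reverse strand, TTGCATCA in Fgf21, Chac1 and Nupr1 and TTACATCA in Trib3. They begin 143 bases before the start in Fgf21, 167 in Chac1, 55 in Nupr1 and 21 in Trib3. These letters were not present in the windows of Asns, Atf4, Ddit3, Ddit4 and Sesn2. A match is a description of the letters and not of binding, and the window covers no element inside or farther from a gene.

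Most of the 10 genes had their highest level in the liver after 6 hours of sevoflurane, beside 28.2% of all genes. After desflurane 4 were above the own control, beside 66.6% of all genes. With sevoflurane, 6 of the 10 genes were called higher than in the own control (Fgf21, Trib3, Asns, Ddit4, Chac1 and Nupr1), where 2.23% of all genes above 2 TPM were, and none was called lower, where 3.30% were. Atf3 exceeded 2 TPM in the desflurane control only, so it could not be called in comparisons without that library. With desflurane, Trib3 was called higher (2.79% of all genes) and Ddit4 and Chac1 lower (1.48% of all genes). Because these contrasts were among the values that chose the group, nothing is read from the counts. The genes just inside and outside the 2-fold limit were Nupr1 at 2.07-fold and Atf4 and Ddit3 at 1.72-fold with sevoflurane, and Ddit4 at 2.01-fold lower and Fgf21 at 1.69-fold lower with desflurane.

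**Figure D1:**
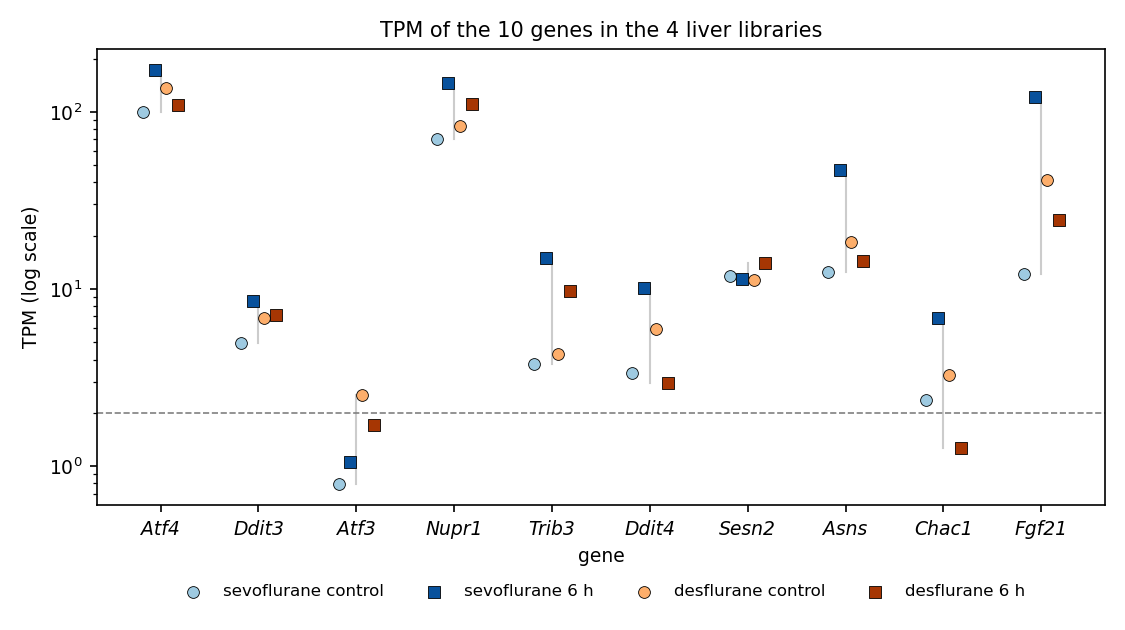
TPM (vertical axis, log scale) of each of the 10 genes (horizontal axis) in the 4 liver libraries, 1 rat each; circles are controls, squares are livers after 6 hours of anesthesia, grey lines span the 4 values, and the dashed line marks 2 TPM. The sevoflurane 6 h square is the highest point for 8 genes, and for Atf3 and Sesn2 it is not.

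Coordinates below are those of the tables (rn6) and give the whole span of the annotated gene. Atf4, the regulator itself (chromosome 7, 121480723 to 121482781, plus strand), had a TPM of 100 in the sevoflurane control, 172 after sevoflurane, 136 in the desflurane control and 109 after desflurane. It was 1.72-fold higher with sevoflurane and 1.26-fold lower with desflurane than in the own control, and no comparison passed the limit. The range over the 4 livers, 1.72-fold, was narrow beside that of Fgf21, Chac1 or Asns. ATF4 is controlled to a large extent at translation, so that its mRNA level is a partial measure of it.

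Ddit3, which encodes the C/EBP family protein CHOP (chromosome 7, 70580252 to 70585074, plus strand), had a TPM of 4.98 in the sevoflurane control, 8.55 after sevoflurane, 6.89 in the desflurane control and 7.12 after desflurane. The change was 1.72-fold with sevoflurane and 1.03-fold with desflurane, neither past the limit. Its row overlaps that of Mars1 on the opposite strand by 62 bases, and Mars1 had 46.9 to 67.3 TPM with its highest value also after sevoflurane. Whether the counting used strand is not given in the sources used here, and the part of Mars1 reads in Ddit3 was not tested.

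Atf3, a stress-induced transcription factor of the same bZIP class (chromosome 13, 109817893 to 109849632, minus strand), was the gene of lowest level in 3 of the 4 livers. Its TPM was 0.79 in the sevoflurane control, 1.05 after sevoflurane, 2.53 in the desflurane control and 1.71 after desflurane, at a mean coverage of its exons of 1.42 to 4.73. The desflurane control was 3.20-fold above the sevoflurane control, and this was the largest difference that Atf3 showed. Both livers after 6 hours lay between the controls.

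Nupr1, a small chromatin protein induced by stress, had a TPM of 69.8 in the sevoflurane control, 145 after sevoflurane, 83.2 in the desflurane control and 111 after desflurane. Both anesthetized livers were above both controls, by 2.07-fold with sevoflurane and 1.3-fold with desflurane against the own control. The tables hold 2 rows for Nupr1 with near-identical values, on chromosome 1 at 194767484 to 194769519 and at 198043117 to 198045152 (rn6, minus strand), and the values given are their sum, so that the level of Nupr1 is uncertain by how reads were divided between them.

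Trib3, a pseudokinase that binds ATF4 and dampens its activity (chromosome 3, 147814066 to 147819650, minus strand), was the gene of the group that was called higher with both agents. Its TPM was 3.79 in the sevoflurane control, 14.9 after sevoflurane, 4.31 in the desflurane control and 9.69 after desflurane. The 6-hour livers were 3.93-fold and 2.25-fold above their own controls, whereas the controls differed by 1.14-fold. Each 6-hour liver was also more than 2-fold above the control of the other agent, by 3.46-fold for sevoflurane and 2.56-fold for desflurane. Trib3 was the gene of the group called higher against each control with desflurane, and 1.25% of genes above 2 TPM in any library were.

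Ddit4 (REDD1) and Sesn2 both restrain the growth kinase mTORC1, and they differed from each other. Ddit4 (chromosome 20, 29509283 to 29511382, minus strand) had a TPM of 3.34 in the sevoflurane control, 10.2 after sevoflurane, 5.94 in the desflurane control and 2.95 after desflurane. It was 3.05-fold higher with sevoflurane and 2.01-fold lower with desflurane, the latter just past the limit, and the liver after sevoflurane was 3.45-fold above that after desflurane. Against the other control, the same values gave 1.71-fold higher for sevoflurane and 0.88-fold for desflurane, neither past the limit. Sesn2 (chromosome 5, 150684896 to 150703846, minus strand) had 11.9, 11.4, 11.2 and 13.99 TPM in the same order, and its whole range, 1.25-fold, was the narrowest of the 10 genes.

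Asns encodes asparagine synthetase, which makes asparagine from aspartate and is a much used readout of amino acid shortage (chromosome 4, 33743364 to 33760716, minus strand). Its TPM was 12.4 in the sevoflurane control, 47.2 after sevoflurane, 18.3 in the desflurane control and 14.4 after desflurane. The liver after sevoflurane was 3.81-fold above its own control and 2.58-fold above the other control, and the liver after desflurane lay between the controls.

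Chac1, an enzyme that degrades glutathione (chromosome 3, 111160205 to 111163425, plus strand), had a TPM of 2.36 in the sevoflurane control, 6.89 after sevoflurane, 3.26 in the desflurane control and 1.26 after desflurane. It was 2.91-fold higher with sevoflurane and 2.59-fold lower with desflurane, which makes the difference between the 6-hour livers, 5.47-fold, the largest in the group. The liver after desflurane was also 1.88-fold below the sevoflurane control. These levels are low, with a mean coverage of 2.12 to 11.7, and the rank depends on them. With 1 TPM added to each value, the log2 change for desflurane against sevoflurane at 6 hours was -1.80 for Chac1 and -2.26 for Fgf21.

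Fgf21 (chromosome 1, 101595579 to 101596822, minus strand, rn6) had the largest change with sevoflurane. Its TPM was 12.2 in the sevoflurane control, 121 after sevoflurane, 41.3 in the desflurane control and 24.5 after desflurane, at a mean coverage of 21.9 to 205. The liver after sevoflurane was 9.97-fold above its own control and 4.95-fold above the liver after desflurane. The size of this change rests on which control is used, since the desflurane control was itself 3.40-fold above the sevoflurane control. Against the desflurane control the liver after sevoflurane was 2.94-fold higher, and against the mean of both controls 4.54-fold higher. With desflurane the direction turned with the control, 1.69-fold lower than the own control and 2.01-fold higher than the sevoflurane control.

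**Figure D2:**
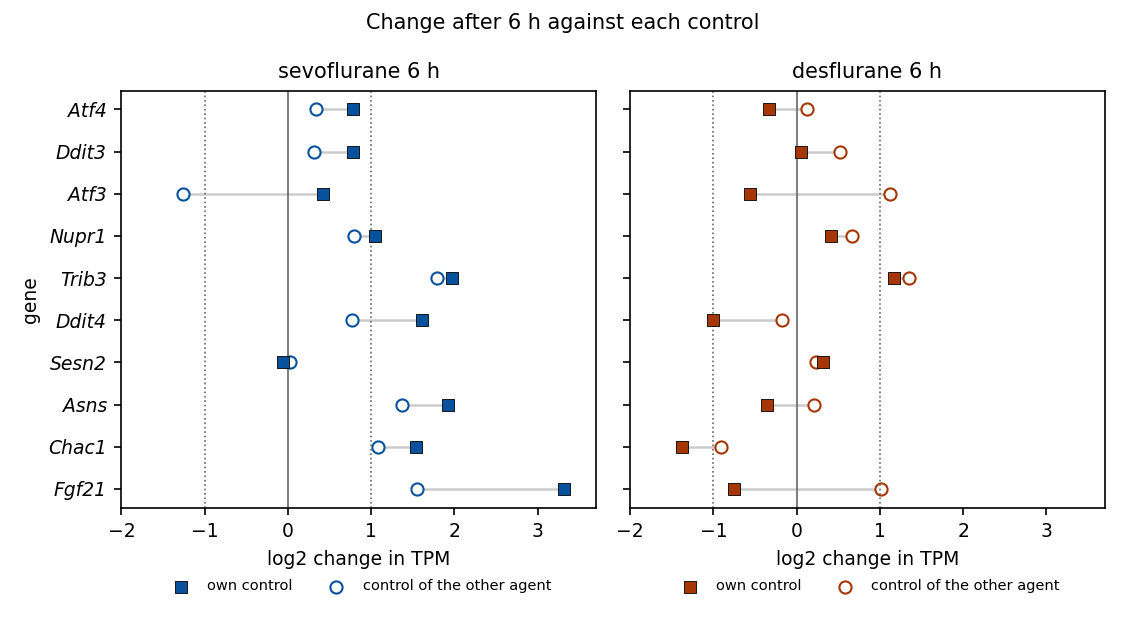
Log2 change in TPM (horizontal axes) of each of the 10 genes after 6 hours of sevoflurane (left) or desflurane (right), against the own control (filled squares) and against the control of the other agent (open circles), 1 library each; dotted lines mark a 2-fold change. With sevoflurane both symbols lie to the right of 0 for 8 genes; with desflurane both do for Ddit3, Nupr1, Trib3 and Sesn2 and both lie to the left for Ddit4 and Chac1.

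The comparisons share control libraries and are set side by side only. The liver after sevoflurane was above both controls for 8 genes, all but Atf3 and Sesn2, beside 46.1% of all genes above 2 TPM in at least 1 library, and it was the highest of the 4 livers for the same 8 genes (28.2% of all genes). It was called higher against each control for 4 genes, Trib3, Asns, Chac1 and Fgf21, beside 1.17% of all genes. The liver after desflurane was above both controls for 4 genes, Ddit3, Nupr1, Trib3 and Sesn2 (53.7% of all genes), and below both for Ddit4 and Chac1 (23.2% of all genes).

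Against the control of the other agent, the liver after sevoflurane was called higher for Trib3, Asns, Chac1 and Fgf21 (2.52% of all genes), no longer for Ddit4 and Nupr1, and lower for Atf3 (2.59%). The liver after desflurane was called higher than the sevoflurane control for Trib3 and Fgf21 (2.84%), and no gene was called lower (1.58%). Between the controls, Atf3 and Fgf21 were called higher in the desflurane control (1.17%) and none was called lower (1.17%), and 9 of the 10 genes were above the sevoflurane control there, as were 45.1% of all genes above 2 TPM in either control. In the direct comparison of the 6-hour livers, Ddit4, Asns, Chac1 and Fgf21 were lower after desflurane (1.17% of all genes), and none was called higher (2.76%).

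On the log2(TPM + 1) scale, the 10 genes had a median change of 1.14 (sevoflurane) and -0.33 (desflurane) against the own controls, beside 0.05 and 0.11 over all genes above 2 TPM in either library. It was -0.62 for desflurane against sevoflurane at 6 hours, beside 0.06 over all genes. The median for desflurane was 0.33 against the sevoflurane control, so its sign depends on the control. The desflurane control was itself above the sevoflurane control, with a median change of 0.42 in the 10 genes and -0.03 over all genes.

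A wider list of 51 known ATF4 targets, none of them among the 10 genes, was followed in the same way. Against the own controls, 47 of them exceeded 2 TPM in either library with sevoflurane and 44 with desflurane, and only these could be called. With sevoflurane 14 were called higher and 0 lower, beside 2.23% and 3.30% of all genes above 2 TPM in either library. In that comparison 40 of 51 were above the own control, as were 56.5% of all such genes, and the median change in log2(TPM + 1) was 0.54. With desflurane 2 were called higher and 2 lower, beside 2.79% and 1.48% of all such genes, 18 were above the own control, beside 66.6%, and the median was -0.10. The same shares over all genes apply to each of the lists that follow. In the direct comparison, 13 were called lower after desflurane (1.17% of all genes) and 0 higher (2.76%). Against the other control, the sevoflurane liver had 10 called higher (2.52%) and 2 lower (Cth and Bbc3, 2.59%), and the desflurane liver had 1 higher (2.84%) and 2 lower (1.58%).

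Among 13 enzymes of amino acid synthesis, Got1, Psat1, Phgdh, Mthfd2 and Aldh18a1 were called higher with sevoflurane, and the median was 0.70. Mthfd2, a mitochondrial folate enzyme, had a TPM of 3.53 in the sevoflurane control, 18.8 after sevoflurane, 3.46 in the desflurane control and 1.42 after desflurane, and was thus higher with one agent and lower with the other. Got1, the cytosolic aspartate aminotransferase, was called higher with both, from 38.8 to 189 TPM with sevoflurane and from 40.4 to 147 TPM with desflurane. Of the most abundant members, Cth, which makes cysteine, had 405, 207, 420 and 314 TPM in the order sevoflurane control, sevoflurane, desflurane control and desflurane, and Shmt2, the mitochondrial serine hydroxymethyltransferase, had 150, 188, 157 and 126 TPM. With desflurane the median of the list was -0.41, and Mthfd2 and Aldh18a1 were called lower.

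Among 10 amino acid transporters, Slc7a11, Slc3a2, Slc7a1 and Slc7a5 were called higher with sevoflurane and none with desflurane, with medians of 0.69 and -0.05. Slc3a2, the heavy chain that carries several of these transporters to the membrane, had 77.8 TPM in the sevoflurane control, 172 after sevoflurane, 80.0 in the desflurane control and 78.8 after desflurane. Slc7a11, the cystine transporter, had 0.37, 2.81, 0.24 and 0.04 TPM in the same order, so that 3 of the 4 livers had it below the limit of 2 TPM. Slc38a2, a transporter of neutral amino acids, had 39.1, 68.5, 42.1 and 39.9 TPM and was not called. Both Slc6a9 (52.4, 44.8, 36.8 and 37.6 TPM) and Slc43a1 (18.9, 28.9, 17.5 and 33.5 TPM) were not called in the comparisons with the own controls, nor was Slc1a4 (4.29, 6.71, 3.57 and 1.94 TPM).

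Of 13 genes for charging and export of tRNA, none was called with either agent, and 11 of them were above the own control with sevoflurane, beside 56.5% of all genes, with a median of 0.52. Eprs, the glutamyl-prolyl-tRNA synthetase, had 87.4 TPM in the sevoflurane control, 154 after sevoflurane, 108 in the desflurane control and 120 after desflurane. Aars, the alanyl-tRNA synthetase, had 126, 142, 116 and 94.4 TPM, Tars1, the threonyl-tRNA synthetase, had 94.1, 86.1, 121 and 66.3 TPM, and Xpot, the tRNA export receptor, had 33.4, 46.2, 32.3 and 37.5 TPM. The median with desflurane was -0.11.

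Of 15 regulators and secreted factors, Gdf15, Adm2, Vldlr, Ifrd1 and Inhbe were called higher with sevoflurane (median 0.34) and Ifrd1 with desflurane (median -0.03). Adm2, a peptide hormone of the calcitonin family, had 2.89 TPM in the sevoflurane control, 11.8 after sevoflurane, 4.73 in the desflurane control and 2.51 after desflurane. Gdf15, a secreted stress hormone, was 2.76, 6.12, 8.91 and 4.48 TPM, so that its highest value was in a control. Ifrd1, a transcriptional coregulator, was 25.5, 62.0, 14.6 and 44.5 TPM, higher with both agents. Atf5 (504, 809, 583 and 465 TPM) and Herpud1 (261, 332, 173 and 301 TPM) were the most abundant and were not called, and neither was Bbc3 (6.36, 3.47, 7.53 and 6.40 TPM).

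The list of 11 eIF2 kinases, phosphatase regulators and related genes, among them Eif2s1 and Eif2b5, had no call with either agent, with medians of 0.08 and 0.19. Dnajc3, an inhibitor of these kinases, had 246, 233, 256 and 224 TPM in the order used above, and Ppp1r15b, the constitutive phosphatase subunit, had 69.9, 85.1, 67.5 and 79.2 TPM. Eif2s1, the eIF2 alpha subunit, had 40.5, 51.2, 38.1 and 42.3 TPM. Of the kinase genes, Eif2ak1 had 46.9, 45.5, 40.4 and 51.9 TPM and Eif2ak2 had 22.1, 16.9, 16.7 and 16.2 TPM. Phosphorylation of eIF2 was not measured.

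**Figure D3:**
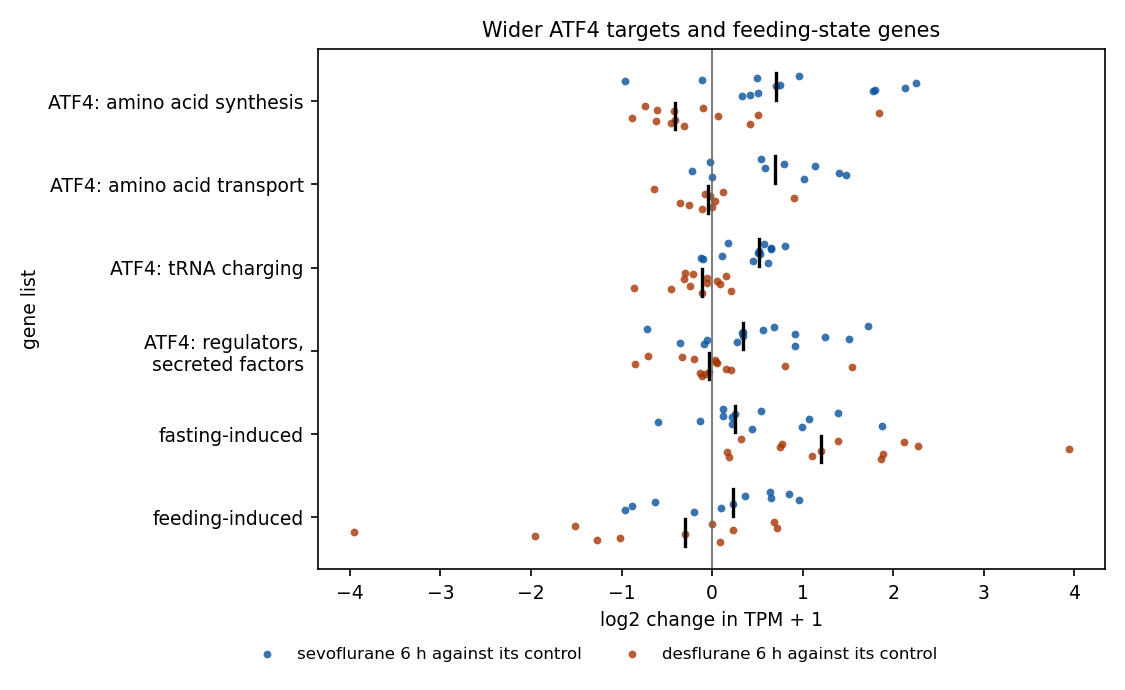
Log2 change in TPM + 1 (horizontal axis) of every gene of 4 lists of known ATF4 targets and of genes induced by fasting or by feeding (vertical axis), after 6 hours of sevoflurane (blue) or desflurane (brown) against the own control, 1 library each; black bars are medians. In the ATF4 lists the medians are 0.34 to 0.70 with sevoflurane and -0.41 to -0.03 with desflurane, and in the fasting list they are 0.25 and 1.2.

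Fgf21 is also induced by fasting through PPAR alpha, and the nutritional state of the 4 livers was therefore set beside it. Of 13 genes induced by fasting, 8 were called higher with desflurane and 3 with sevoflurane, beside 2.79% and 2.23% of all genes, and their medians were 1.2 and 0.25. All 13 were above the own control with desflurane, as were 66.6% of all genes. Of 11 genes induced by feeding, 5 were called lower with desflurane and 1 with sevoflurane, beside 1.48% and 3.30% of all genes, with medians of -0.29 and 0.23. These differences between the agents changed with the control used. With the controls exchanged, 6 fasting genes were called higher with each agent (2.52% of all genes for sevoflurane and 2.84% for desflurane), and the medians were 0.96 with sevoflurane and 0.96 with desflurane. The feeding genes called lower were then 3 with sevoflurane (2.59% of all genes) and 1 with desflurane (1.58%), with medians of -0.16 and -0.05. In the direct comparison of the 6-hour livers, 4 fasting genes were called higher after desflurane (2.76% of all genes) and 1 lower (1.17%). Of the 13 fasting genes, 10 were higher after desflurane, beside 58.6% of all genes, and the median was 0.40. Of the feeding genes, 1 was called higher and 2 lower after desflurane, with a median of -0.01. The part of feeding state in the Fgf21 values was not tested.

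Single genes showed that the controls differed here too. Igfbp1, which is repressed by insulin, had 35.1 TPM in the sevoflurane control, 74.7 after sevoflurane, 7.94 in the desflurane control and 136 after desflurane. Pnpla3, a lipogenic gene, had 2.74, 1.02, 11.7 and 2.29 TPM in the same order. The desflurane control was thus the highest of the 4 livers for Pnpla3 and the lowest for Igfbp1, and Fgf21 was 3.40-fold higher there than in the sevoflurane control. Cpt1a, the carnitine transferase of fatty acid oxidation, had 124, 329, 99.6 and 435 TPM, Sds, serine dehydratase, had 28.8, 109, 20.2 and 44.6 TPM, and Pck1, of gluconeogenesis, had 1079, 980, 414 and 951 TPM. Not every gene followed. Pdk4, which restrains pyruvate oxidation, had 40.8, 26.7, 71.4 and 80.3 TPM and was not called with either agent. Of the lipogenic genes, Scd (567, 605, 789 and 389 TPM) was called lower with desflurane, and Fasn (38.3, 75.3, 63.5 and 74.5 TPM), Elovl6 (3.96, 6.77, 3.80 and 6.90 TPM) and Thrsp (717, 623, 694 and 738 TPM) were not called.

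Of a list of FGF receptors and regulators of FGF21, 8 of 9 genes were found, the exception being the coreceptor Klb, and none was called with sevoflurane. Ppara, the receptor that drives Fgf21 in fasting, had 70.7 TPM in the sevoflurane control, 70.7 after sevoflurane, 53.4 in the desflurane control and 92.8 after desflurane, and was not called against the own control with either agent. Mlxipl (ChREBP), the carbohydrate-responsive regulator of Fgf21, had 97.8, 117, 140 and 125 TPM. The FGF receptor genes Fgfr4 (23.0, 30.2, 25.6 and 24.1 TPM) and Fgfr2 (24.5, 16.7, 24.9 and 21.9 TPM) were not called. Ppargc1a, a coactivator of fasting metabolism, was called higher with desflurane, with 4.23, 5.08, 2.90 and 13.5 TPM.

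The genes whose pattern was most like that of Fgf21 were searched among 9983 genes above 2 TPM in any library, the 10 genes left out, by distance in log2(TPM + 1) after centring on the mean of the 4 libraries. With 4 points many genes can share an order, and the list is a description. Abcd2, a peroxisomal fatty acid transporter, was nearest (0.70), with 0.90 TPM in the sevoflurane control, 9.99 after sevoflurane, 2.64 in the desflurane control and 2.58 after desflurane. The next were Tsku (1.11; 86.2, 363, 118 and 146 TPM), Adm2 (1.12), Psat1 (1.14; 10.8, 39.2, 14.7 and 9.21 TPM) and Slc25a25 (1.17; 25.0, 105, 51.0 and 61.6 TPM). In each of these the liver after sevoflurane was the highest and the sevoflurane control was lower than the desflurane control, as for Fgf21. Of the 10 genes, Asns was the nearest to Fgf21 (1.04), then Ddit4 (1.32), Chac1 (1.48) and Trib3 (1.62), and Atf3 (2.36) and Sesn2 (2.45) were the farthest.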

How the data were processed

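Total RNA from 4 rat livers was sequenced, with 1 library for each condition, and conditions were taken from the labels. The labels and the study's methods name different Illumina library kits. The authors trimmed reads with sickle 1.33, aligned them with HISAT2 2.1.0 (rn6), sorted the alignments (SAMtools 1.10) and quantified genes of the refGene annotation with StringTie 2.1.2. The deposited tables give a coverage signal (the mean read depth over the exons, not normalized for library size), FPKM and TPM. The deposited TPM values are a signal scaled by StringTie to a sum of 1000000 over its assembled rows, and annotated rows, scaled alike, sum to between 779824 and 813454. The authors' FPKM served as an alternative. The tables hold no read counts, and no counting interval could be given.

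Assembled rows (21770 to 23290 per library) and rows of at most 200 base pairs (495 to 518) were left out. Assembled rows over some of the 10 genes held other values. In the order sevoflurane control, sevoflurane, desflurane control and desflurane, they had 5.53, 12.2, 7.67 and 9.88 TPM over Ddit3. Over Asns they had 11.3, 49.0, 10.3 and 13.4 TPM, and over Fgf21 12.2, 121, 41.3 and 18.6 TPM. In the assembled rows over Asns the liver after desflurane was thus above both controls, whereas in the row used it lay between them. Those over Atf4, Ddit4, Chac1 and Nupr1 were close to the values used. TPM was summed for each symbol, which left 16992 genes (438 symbols with several rows). Fold changes have no pseudocount, and medians use log2(TPM + 1). Shares of all genes refer to genes above 2 TPM in either library compared, or in at least 1 library where several comparisons are joined. With 1 library per condition, nothing was tested. The 10 genes, the wider lists and the promoter motif were chosen with earlier results of these data known. The calling rule is that of the study. In the lists of ATF4 targets, eIF2 regulators, FGF21 regulators and fasting or feeding genes, the genes named were those called in the same direction with both agents, the 2 most abundant and those with the largest change in each direction for each agent. Some genes that this rule names are not reported here. Further genes were named as members of a count of 5 or fewer, after their values were seen. The marker lists were those of hepatocytes and pancreatic acinar cells given with the results, and of 7 other cell types, given in the closing section. Alternatives changed the limits on TPM and fold, the pseudocount, scaling, FPKM, row filters, coverage and the choice of control. Promoter sequences are from RefSeq (GRCr8), another build than that of the files, and no coordinate was converted. Python 3.11.15, numpy 2.4.6, pandas 2.3.3 and matplotlib 3.10.9 were used. Only the calling rule was run on simulated data, with large known changes and little noise.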

Additional observations from a re-analysis of the deposited data

Results flagged for a closer look

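For 7 of the 10 genes the log2 change in TPM against the own control had opposite signs with the agents. The share of all genes with opposite signs was not computed, so nothing is read from this count. Of all genes, 56.5% were above the own control with sevoflurane and 66.6% with desflurane. Each is 1 library against 1, and the differences were not tested. The changes with sevoflurane and desflurane were 3.32 and -0.75 for Fgf21, 1.54 and -1.37 for Chac1, 1.61 and -1.01 for Ddit4, and 1.93 and -0.35 for Asns. In the assembled rows over Asns, which were not used, the change with desflurane was positive. The remaining genes had smaller changes, 0.79 and -0.33 for Atf4, 0.42 and -0.56 for Atf3, and -0.0596 with sevoflurane and 0.32 with desflurane for Sesn2. With the controls exchanged between agents, the signs were opposite for Ddit4 and Chac1 and, with the order of the agents turned, for Atf3.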

How the results depend on the processing

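The 6 calls with sevoflurane against its own control were 8 at a 1.5-fold limit and 4 at a 3-fold limit. They were 5 against the mean of the controls and 4 against the other control, where 1 gene was called lower in place of 0. In the direct comparison of the 6-hour livers, the 4 genes called lower after desflurane became 6 at a 1.5-fold limit. With desflurane, the 1 gene called higher became 0 at a 3-fold limit and 2 against the other control. The 2 called lower became 1 at a TPM limit of 5, with FPKM or with the mean of the controls, and 0 at a 3-fold limit, with a pseudocount of 1 TPM or with the other control. The FPKM setting kept the limit of 2, which is stricter there because FPKM was lower than TPM. For example, Chac1 had 1.13 FPKM and 3.26 TPM in the desflurane control. The median change with desflurane, -0.33, turned to 0.33 against the other control. For sevoflurane against the desflurane control, 4 genes called higher became 1 at a 3-fold limit, and 1 called lower became 0 at a TPM limit of 5, at 3-fold, with the pseudocount or with FPKM. For desflurane against the sevoflurane control, 2 called higher became 0 at 3-fold and 1 with the pseudocount, with median-of-ratios scaling or with FPKM, and 0 called lower became 1 at 1.5-fold or with that scaling. Between the controls, 2 called higher became 1 at a TPM limit of 5, with the pseudocount or with FPKM. The TPM limit, fold limit and coverage settings cannot change a fold change or a median and were not rerun for them. For the single log2 changes, each gene, comparison and remaining setting gave 1 value, and the exchange of controls was left out. Of these values, 434 stayed within 1.5-fold of the reported change and 6 moved. Keeping short rows changed none, and 1 row per symbol changed only Nupr1. The exchange of controls moved some log2 changes past that limit, such as Fgf21 with sevoflurane (3.32 to 1.55). Others stayed within it, such as Trib3 with sevoflurane (1.97 to 1.79). No library could be left out and no paired analysis was possible because each condition has 1 library. Coverage limits Atf3 and Chac1 most.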

Other observations

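Markers of other cells varied over the same livers. In the order sevoflurane control, sevoflurane, desflurane control and desflurane, the summed TPM of Kupffer cell genes was 479, 303, 377 and 444, and that of erythroid genes 112, 79.6, 85.3 and 46.9. T and NK cell genes added up to 4.58, 1.27, 2.14 and 3.20 TPM and B cell genes to 4.62, 2.04, 2.76 and 2.74 TPM. Endothelial genes added up to 144 to 167 TPM, stellate cell genes to 48.3 to 60.9 TPM and cholangiocyte genes to 11.0 to 16.9 TPM. Of the B cell and cholangiocyte lists 3 of 4 genes were found. The part of these cells in the values of the 10 genes was not tested.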
